A study of Mus musculus with 9 samples.

Results

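The stem cell surface markers described here are 10 mouse genes: Pecam1, Icam1, Thy1, Cd44, Pdpn, Cd24a, Cd9, Prom1, Alpl and Fut4. They were chosen by symbol, with earlier results of the same libraries known, and make up 10 of the 24819 genes in the expression table. All but 1 of their products sit on the outer face of the cell, and Fut4 encodes an enzyme of the Golgi that builds a surface sugar. Cells of E14, a widely used mouse embryonic stem (ES) cell line, were kept on gelatin in 3 media, and polyadenylated RNA was sequenced with a strand-keeping kit. EPSCM, expanded potential stem cell medium, whose recipe the labels do not give, had 3 libraries. 2iLIF, which is N2B27 medium with the 2i inhibitors and leukemia inhibitory factor (LIF), had 3 libraries. ES medium, which is high-glucose DMEM with fetal bovine serum and LIF, had 3 libraries. Cells of all 9 libraries were of the same line, with no gene edited as far as the labels say. Whether the 3 libraries of a medium were grown as separate cultures is not in the labels. SDs, SEs and p-values therefore reflect library-to-library spread, which may be technical.

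Surface markers are used to sort and stage stem cells, because an antibody can reach them on living cells. Adhesion molecules of the immunoglobulin (Ig) type hold cells to each other, CD44 holds them to hyaluronan, and tetraspanins and prominin arrange the membrane itself. Alkaline phosphatase activity and the sugar epitope SSEA-1, also called Lewis X, are classical stains of undifferentiated mouse ES cells, and SSEA-1 is built by fucosyltransferases such as the products of Fut4 and Fut9. The 2i inhibitors block the kinases MEK and GSK3 and hold cells in a ground state of pluripotency. RNA levels are what was measured here, so nothing below is a measure of protein or epitope on the surface.

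Values are FPKM, which scales fragments to the length of the transcript and the size of the library, and read counts were not used here. A rough reading of the smallest steps among the values put 1 fragment per 1 kb of transcript at 0.0365 to 0.0550 FPKM, depending on the library. Between 11155 and 11764 genes reached 1 FPKM in a library, and 12330 genes reached it in at least 3 libraries and were tested. In 1 library of each medium many genes departed from the other two: EPSCM replicate 2, 2iLIF replicate 1 and ES replicate 1, which carry the library numbers 19, 18 and 16. Across genes those correlated at r = 0.9855 to 0.9902 with the others of their medium, which correlated among themselves at 0.9959 to 0.9967. All 6 listed genes that define ES cells were present in every medium, with Pou5f1 at 627 ± 88.4 FPKM in EPSCM, 1064 ± 129 FPKM in 2iLIF and 1352 ± 162 FPKM in ES medium (SD, n = 3 each). Of the 6, Pou5f1 and Zfp42 were called lower in EPSCM than in ES medium, with log2 differences of -1.11 ± 0.13 and -1.70 ± 0.09 (limma adjusted p = 5.10e-05 and 3.89e-07), and Zfp42 was at 163 ± 14.8 FPKM in EPSCM, 404 ± 32.4 in 2iLIF and 534 ± 46.0 in ES medium.

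The 10 genes differed widely in level. Cd9 was the most abundant in every medium and ranked 170 in EPSCM, 193 in 2iLIF and 358 in ES medium among the 12330 tested genes by mean FPKM. Icam1, Alpl and Pecam1 followed in EPSCM, and Alpl, Cd24a and Pecam1 in 2iLIF. Prom1 was near 1 FPKM outside EPSCM, and Cd44 and Fut4 stayed under 1 FPKM in all 9 libraries and were not tested. Below, a difference is on the log2(FPKM + 1) scale with its SE from a limma model over the 9 libraries, which understates the change of low genes. A gene counts as called when its adjusted p is under 0.05 and the size of its log2 difference is 1 or more.

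Of the 8 markers tested, 6 were called higher and 1 lower in EPSCM than in ES medium, where 19.7% of all tested genes were called, 11.7% higher and 7.97% lower (1440 and 983 genes, against 1152 and 1143 with quantile normalization). Pecam1, Icam1, Pdpn, Cd24a, Prom1 and Alpl were the higher ones and Thy1 was the lower one. Of the same 8, 4 were called higher and 0 lower in EPSCM than in 2iLIF, namely Icam1, Pdpn, Prom1 and Thy1, where 16.1% of tested genes were called, 10.1% higher and 5.91% lower. In 2iLIF against ES medium 2 were called higher, Alpl and Cd24a, and 1 lower, Thy1, where 14.7% of tested genes were called, 7.62% higher and 7.12% lower. The median log2 difference of the 8 was 1.39, 1.13 and 0.40 in these 3 comparisons, and that of all tested genes was 0.09, 0.03 and 0.03. Without overlap between libraries, 7 of the 8 lay higher and 1 lower in EPSCM than in ES medium, where the libraries of 74.1% of tested genes did not overlap, 42.0% higher and 32.1% lower. In EPSCM against 2iLIF it was 6 higher and 0 lower, where 71.1% of tested genes did not overlap, 37.9% higher and 33.2% lower. In 2iLIF against ES medium it was 4 higher and 2 lower, where 70.6% of tested genes did not overlap, 36.6% higher and 34.0% lower. The markers were chosen with these contrasts in view, so the counts and medians describe them and support nothing. The 3 comparisons share libraries with each other, so their values are not independent.

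**Figure D1:**
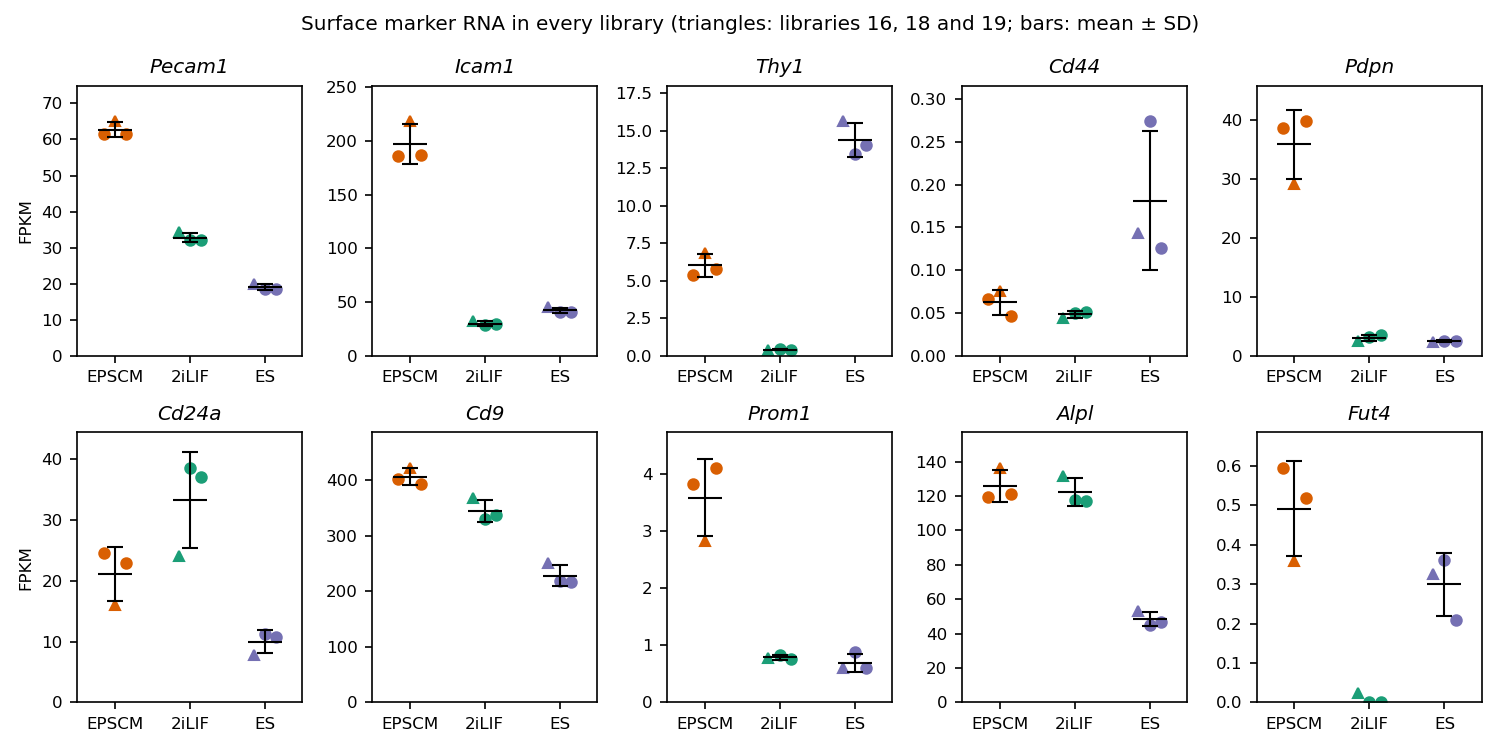
FPKM of each of the 10 genes in each library (y axis, linear, own scale per panel) by medium (x axis: EPSCM, 2iLIF, ES). Points are libraries, triangles are the libraries numbered 16, 18 and 19, and bars are the mean ± SD of 3 libraries, with no bar for Fut4 in 2iLIF. Icam1, Pdpn and Prom1 are highest in EPSCM, at 197, 35.9 and 3.58 FPKM on average, while Thy1 is highest in ES medium at 14.4 FPKM.

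Icam1, Pdpn and Prom1 were the markers called higher in EPSCM than in both other media with no call between the other two. The bases before their start sites are shown because these genes share that pattern of calls. Between libraries of a medium the 3 genes did not all move together. In the libraries numbered 16, 18 and 19 Icam1 lay above the mean of the other 2 in all 3 media. Pdpn and Prom1 lay below it in all 3, though Prom1 stayed between the other 2 in 2iLIF and ES medium. The sequences are the 250 bases before the start of the gene in RefSeq (GRCm38.p6), read 5′ to 3′ on the strand of the gene, and Prom1 has 2 start sites. RefSeq start sites were found for 7 of the 10 genes, with 9 windows in all. Capitals mark matches on either strand to any of 7 motifs. These were the TATA box with the letters TATAAA, the GC box with the letters GGGCGG, the E-box with the letters CACGTG, the STAT motif with the letters TTCNNNGAA, the AP-1 motif with the letters TGANTCA, the CRE with the letters TGACGTCA and the TCF motif with the letters CTTTGA.
Icam1 promoter, chr9:21015690-21015939, plus strand: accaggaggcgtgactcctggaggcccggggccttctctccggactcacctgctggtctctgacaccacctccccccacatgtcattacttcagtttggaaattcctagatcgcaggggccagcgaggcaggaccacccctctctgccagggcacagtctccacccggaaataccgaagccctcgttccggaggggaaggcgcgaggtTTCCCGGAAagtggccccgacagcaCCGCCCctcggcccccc
Pdpn promoter, chr4:143299565-143299814, minus strand: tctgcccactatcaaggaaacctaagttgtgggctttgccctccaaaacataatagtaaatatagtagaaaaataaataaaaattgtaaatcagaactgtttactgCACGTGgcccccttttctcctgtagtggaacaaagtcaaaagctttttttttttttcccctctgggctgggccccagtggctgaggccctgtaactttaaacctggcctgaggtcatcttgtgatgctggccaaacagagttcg
Prom1 promoter at the outer start site, chr5:44101737-44101986, minus strand: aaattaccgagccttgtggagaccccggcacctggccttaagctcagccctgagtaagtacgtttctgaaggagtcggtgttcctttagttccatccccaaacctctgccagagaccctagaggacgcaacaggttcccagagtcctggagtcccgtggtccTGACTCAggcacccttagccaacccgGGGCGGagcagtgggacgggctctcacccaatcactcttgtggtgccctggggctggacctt
Prom1 promoter at the inner start site, chr5:44094769-44095018, minus strand: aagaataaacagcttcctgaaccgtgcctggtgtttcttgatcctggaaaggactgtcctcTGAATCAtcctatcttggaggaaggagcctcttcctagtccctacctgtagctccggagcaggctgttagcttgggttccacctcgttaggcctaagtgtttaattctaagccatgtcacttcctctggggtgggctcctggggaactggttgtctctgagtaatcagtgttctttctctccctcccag
The 3 genes share no motif of the 7 across all of their windows. Icam1 holds 1 STAT match, found in 7.02% of 32851 promoter windows of the same length, and a GC box, found in 32.7%. Pdpn holds 1 E-box, found in 6.02%, and both Prom1 windows hold an AP-1 match, found in 6.75%. The outer Prom1 window also holds a GC box. No window of the 7 matched genes holds the CRE or TCF letters, which stood in 1.55% and 13.8% of all windows. A match is a run of letters and not a measured binding site, and whether a factor binds there was not measured.

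Of the Ig-type markers Icam1, Pecam1 and Thy1, Icam1 had the widest gap between EPSCM and both other media on the log2(FPKM + 1) scale. By the ratio of FPKM means over 2iLIF, Thy1 had the wider gap, at 14.7. Icam1 encodes ICAM-1 (CD54), the ligand of leukocyte integrins such as LFA-1. It stood at 185.6, 218.3 and 187.1 FPKM in the EPSCM libraries, against 32.4, 28.4 and 29.4 FPKM in 2iLIF and 45.1, 40.9 and 40.9 FPKM in ES medium. The 3 EPSCM libraries lay far above the other 6, and the 2iLIF libraries lay below those of ES medium without overlap. The means were 197 ± 18.5 FPKM in EPSCM, 30.1 ± 2.12 in 2iLIF and 42.3 ± 2.38 in ES medium (SD, n = 3 each), so that Icam1 ranked 343 among tested genes in EPSCM, 2970 in 2iLIF and 2179 in ES medium. EPSCM exceeded ES medium by 2.19 ± 0.08 on the log2 scale, a ratio of FPKM means of 4.66. Against 2iLIF it was 2.67 ± 0.08, a ratio of 6.56. Between 2iLIF and ES medium it was -0.48 ± 0.08, under the limit for a call. An antisense gene, Gm47079, overlaps exons of Icam1 in the annotation, and the sources used here do not say whether counting used the strand.

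Pecam1 encodes CD31, an adhesion molecule known from endothelium and blood that is also carried by undifferentiated mouse ES cells. It stood at 61.6, 65.1 and 61.5 FPKM in EPSCM, against 34.2, 32.0 and 32.1 FPKM in 2iLIF and 20.05, 18.5 and 18.6 FPKM in ES medium. The 3 media formed 3 separate levels, with EPSCM highest and ES medium lowest. The means were 62.7 ± 2.05, 32.8 ± 1.24 and 19.04 ± 0.878 FPKM in EPSCM, 2iLIF and ES medium. EPSCM against ES medium had a log2 difference of 1.67 ± 0.06, which was called, and 0.91 ± 0.06 for EPSCM against 2iLIF, which was not. For 2iLIF against ES medium it was 0.75 ± 0.06. Pecam1 is also a marker of endothelium, and 8 other endothelial genes summed to 7.97 to 9.73 FPKM in EPSCM, 5.16 to 5.60 in 2iLIF and 6.86 to 7.16 in ES medium, and Cdh5, which defines endothelium, averaged 0.0244 FPKM in EPSCM, 0.0472 in 2iLIF and 0.180 in ES medium. Of these 8 Emcn was listed at 0 in every library, and Vwf rose in EPSCM, at 5.10 ± 0.588 FPKM against 1.12 ± 0.0252 FPKM in ES medium (limma, Benjamini-Hochberg adjusted p = 2.08e-07, n = 3 each).

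Thy1 encodes CD90, a small Ig-type protein held by a glycosylphosphatidylinositol (GPI) anchor and best known from T cells, neurons and fibroblasts. It stood at 5.40, 6.87 and 5.79 FPKM in EPSCM, against 0.420, 0.445 and 0.364 FPKM in 2iLIF and 15.6, 13.5 and 14.02 FPKM in ES medium. It was the only one of the 8 tested markers whose order ran ES medium, EPSCM, 2iLIF, and no library of one medium reached those of another. The means were 6.02 ± 0.762 FPKM in EPSCM, 0.410 ± 0.0412 in 2iLIF and 14.4 ± 1.12 in ES medium. On the log2 scale the difference was -1.13 ± 0.09 for EPSCM against ES medium and 2.31 ± 0.09 for EPSCM against 2iLIF. For 2iLIF against ES medium it was -3.44 ± 0.09, with the 2iLIF libraries under 0.5 FPKM. The ratio of FPKM means was 0.419 for EPSCM over ES medium, 14.7 for EPSCM over 2iLIF and 0.0285 for 2iLIF over ES medium.

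The 29 other Ig-type adhesion molecules and their leukocyte receptors ranged widely in level, and 16 were tested. In EPSCM against ES medium 2 of the 16 rose and 2 fell, in EPSCM against 2iLIF 2 rose and 2 fell, and in 2iLIF against ES medium 3 rose and 3 fell. The shares called were 25%, 25% and 37.5%, where all tested genes had 19.7%, 16.1% and 14.7%. Mcam, the adhesion molecule CD146, fell in EPSCM against ES medium, at 11.7 ± 0.557 against 37.7 ± 2.77 FPKM (log2 difference -1.61 ± 0.07, limma adjusted p = 8.97e-08, n = 3 each), and it was at 3.18 ± 0.0736 FPKM in 2iLIF, the same order of media as Thy1. Cadm4, a nectin-like cell adhesion molecule, rose in EPSCM to 21.1 ± 2.47 FPKM, against 6.64 ± 1.00 FPKM in ES medium (1.54 ± 0.11, adjusted p = 1.93e-06). Jam2 and Jam3, junctional adhesion molecules, fell in EPSCM against 2iLIF, with Jam2 at 41.2 ± 0.649 against 107 ± 3.80 FPKM (-1.35 ± 0.05, adjusted p = 3.80e-08) and Jam3 at 7.42 ± 0.471 against 20.9 ± 1.38 FPKM (-1.38 ± 0.08, adjusted p = 4.78e-07). Bcam, a laminin receptor of the same family, fell in EPSCM, at 41.6 ± 5.86 against 92.8 ± 10.2 FPKM in ES medium (-1.14 ± 0.11, adjusted p = 1.73e-05). Icam2, another gene of the ICAM group, stayed under 1 FPKM in each medium, at 0.0292 ± 0.0507 in EPSCM, 0.822 ± 0.140 in 2iLIF and 0.107 ± 0.0522 in ES medium. Itgb2, the beta chain of the leukocyte integrins that bind ICAM-1, averaged at most 0.1503 FPKM in any medium.

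Of the hyaluronan and mucin-type markers, Pdpn changed most. Pdpn encodes podoplanin, a mucin-type protein of lymphatic vessels, lung and stroma that binds the platelet receptor CLEC-2 and is tied to the cortex by ezrin, radixin and moesin (ERM) proteins. It stood at 38.7, 29.2 and 39.8 FPKM in EPSCM, against 2.47, 3.14 and 3.53 FPKM in 2iLIF and 2.29, 2.56 and 2.57 FPKM in ES medium. All 3 EPSCM libraries lay far above the other 6, and 2iLIF and ES medium overlapped. The means were 35.9 ± 5.84, 3.05 ± 0.534 and 2.47 ± 0.158 FPKM in EPSCM, 2iLIF and ES medium. The log2 difference was 3.40 ± 0.13 for EPSCM against ES medium and 3.18 ± 0.13 for EPSCM against 2iLIF, ratios of FPKM means of 14.5 and 11.8. Between 2iLIF and ES medium it was 0.21 ± 0.13. Clec1b, which encodes CLEC-2, was listed at 0 in all EPSCM and 2iLIF libraries.

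Cd24a encodes CD24, a short and heavily glycosylated protein on a GPI anchor. It stood at 24.5, 15.999 and 22.8 FPKM in EPSCM, against 24.1, 38.6 and 37.0 FPKM in 2iLIF and 7.87, 11.3 and 10.8 FPKM in ES medium. ES medium was lowest without overlap, while the ranges of EPSCM and 2iLIF met, since EPSCM replicate 1 lay above 2iLIF replicate 1. The means were 21.1 ± 4.49, 33.2 ± 7.93 and 9.98 ± 1.84 FPKM in EPSCM, 2iLIF and ES medium. The log2 difference was 1.00 ± 0.22 for EPSCM against ES medium, at the limit for a call. That call was lost with quantile normalization (0.91), with libraries scaled to the same median ratio (0.91), with the close libraries of a medium averaged (0.99), and without EPSCM replicate 1 (0.89), EPSCM replicate 3 (0.94) or ES replicate 1 (0.86). For EPSCM against 2iLIF the difference was -0.62 ± 0.22, and for 2iLIF against ES medium 1.63 ± 0.22. In each medium the lowest library was the one numbered 16, 18 or 19. A processed pseudogene, Gm6212, is 96.789% identical to Cd24a over 218 bases, so reads could be split between them.

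Cd44 encodes the main receptor of hyaluronan and stayed far below 1 FPKM. It stood at 0.0661, 0.0756 and 0.0467 FPKM in EPSCM, against 0.0440, 0.0498 and 0.0515 FPKM in 2iLIF and 0.144, 0.274 and 0.126 FPKM in ES medium. ES medium was the highest without overlap, at 0.181 ± 0.0807 FPKM, and EPSCM at 0.0628 ± 0.0147 and 2iLIF at 0.0484 ± 0.00395 overlapped. Levels of this size rest on few fragments and were not tested. Of 16 other genes of hyaluronan metabolism and binding, 9 were tested, and 1 fell in EPSCM against ES medium, 2 fell in EPSCM against 2iLIF and 3 rose in 2iLIF against ES medium. Hyal2, a hyaluronidase, was the gene that fell against both, at 12.8 ± 1.87 FPKM in EPSCM, 30.6 ± 2.43 in 2iLIF and 27.4 ± 2.78 in ES medium, with a log2 difference of -1.04 ± 0.11 against ES medium (limma adjusted p = 2.59e-05, n = 3 each) that lost its call without EPSCM replicate 1, EPSCM replicate 3 or ES replicate 1. Hyal1, another hyaluronidase, fell in EPSCM against 2iLIF, at 6.29 ± 0.199 against 15.5 ± 0.618 FPKM (-1.18 ± 0.08, adjusted p = 2.04e-06). Spp1, which encodes the secreted CD44 ligand osteopontin, rose in 2iLIF, at 556 ± 49.2 against 209 ± 15.3 FPKM in ES medium (1.41 ± 0.09, adjusted p = 1.15e-06), and was at 319 ± 24.8 FPKM in EPSCM. Has2, a hyaluronan synthase, averaged 0.120 FPKM or less in each medium.

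The linkers that tie CD44 and podoplanin to the cortex, with the splicing and shedding factors of CD44, made a list of 11 tested genes. Of these 2 rose and 2 fell in EPSCM against ES medium, 0 rose and 2 fell in EPSCM against 2iLIF, and 2 rose and 2 fell in 2iLIF against ES medium. Ezr, which encodes ezrin, was at 102 ± 5.42 FPKM in EPSCM, 99.6 ± 7.09 in 2iLIF and 101 ± 7.25 in ES medium, with log2 differences of 0.01 ± 0.07 against ES medium and 0.03 ± 0.07 against 2iLIF (limma adjusted p = 0.913 and 0.747, n = 3 each). Adam10, a shedding protease, rose in EPSCM to 13.5 ± 1.22 FPKM, against 5.17 ± 0.329 FPKM in ES medium (1.23 ± 0.08, adjusted p = 1.05e-06), and was at 13.8 ± 0.743 FPKM in 2iLIF. Mmp14, a membrane protease that cleaves CD44, fell in EPSCM to 4.27 ± 0.531 FPKM, against 16.1 ± 1.44 FPKM in ES medium (-1.69 ± 0.11, adjusted p = 1.08e-06). Esrp1, a splicing factor of CD44, fell in 2iLIF to 0.0636 ± 0.0429 FPKM, against 1.79 ± 0.0822 FPKM in ES medium (-1.39 ± 0.07, adjusted p = 4.42e-07), and was tested through its ES medium libraries alone.

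**Figure D2:**
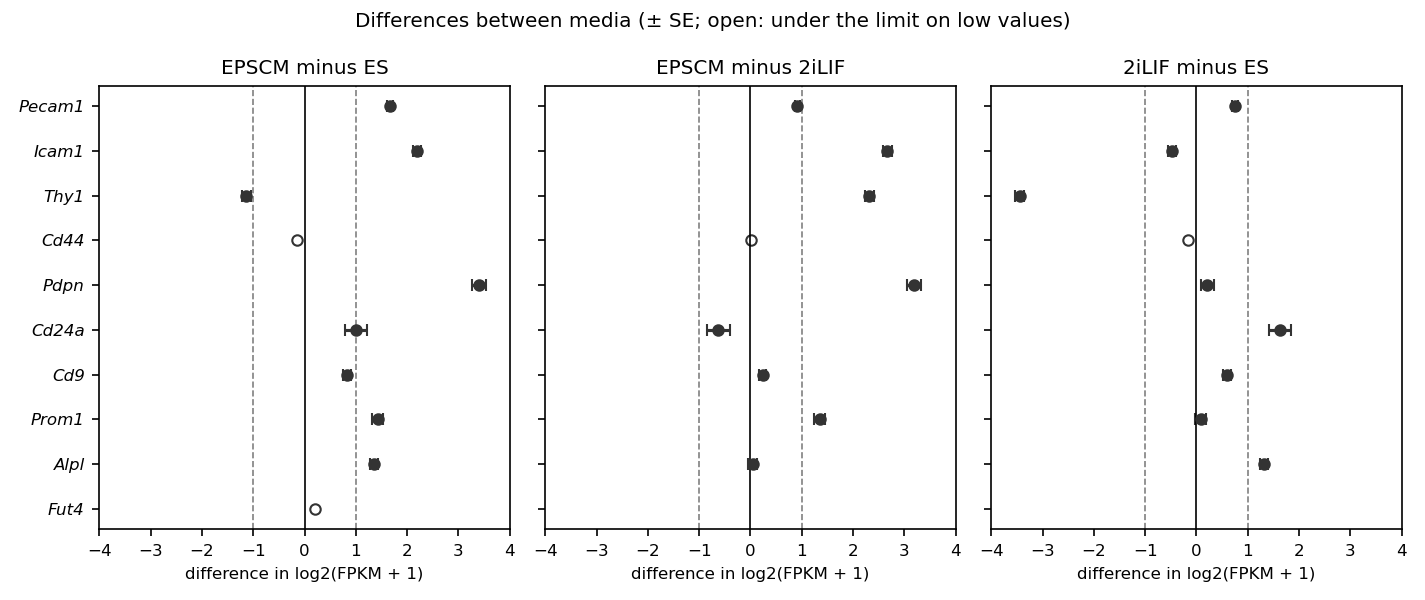
Log2(FPKM + 1) difference ± SE (x axis) of each marker (rows) in 3 panels, EPSCM against either other medium and 2iLIF against ES, with dashed lines at -1 and 1. Open points are genes under the limit for low values, and Fut4 is not drawn against 2iLIF, where it is listed at 0 in 2 libraries. Pdpn lies farthest right against ES medium at 3.40, and Thy1 turns from -1.13 against ES medium to 2.31 against 2iLIF.

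Cd9 and Prom1 are the membrane organisers of the panel. Cd9 encodes a tetraspanin present on most ES cells. It stood at 403, 423 and 394 FPKM in EPSCM, against 368, 330 and 337 FPKM in 2iLIF and 251, 218 and 216 FPKM in ES medium. The media lay in the order EPSCM, 2iLIF, ES medium with no overlap. The means were 407 ± 14.7, 345 ± 20.3 and 228 ± 19.3 FPKM in EPSCM, 2iLIF and ES medium. The log2 difference was 0.83 ± 0.07 for EPSCM against ES medium, 0.24 ± 0.07 for EPSCM against 2iLIF and 0.59 ± 0.07 for 2iLIF against ES medium, none past the limit of 1. With quantile normalization the difference against ES medium was 1.02 and was called. Gm26728, on the other strand, overlaps exons of Cd9 in the annotation.

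Prom1 encodes prominin-1 (CD133), a protein of membrane protrusions used to sort stem cells of several tissues. It stood at 3.82, 2.83 and 4.11 FPKM in EPSCM, against 0.773, 0.827 and 0.759 FPKM in 2iLIF and 0.607, 0.876 and 0.604 FPKM in ES medium. The EPSCM libraries lay above all others, and 2iLIF and ES medium overlapped. Prom1 reached the limit for testing through its EPSCM libraries alone, so that a difference was built into its being tested. The means were 3.58 ± 0.672, 0.787 ± 0.0361 and 0.696 ± 0.156 FPKM in EPSCM, 2iLIF and ES medium. The log2 difference was 1.43 ± 0.11 for EPSCM against ES medium, 1.35 ± 0.11 for EPSCM against 2iLIF and 0.08 ± 0.11 for 2iLIF against ES medium. An antisense gene, Gm16401, overlaps exons of Prom1, and stretches of 310 to 324 bases in Gm38070, Gm43042 and Gm46136 are 95.37% to 97.419% identical to it.

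Of 21 tested tetraspanins and Ig partners of tetraspanins other than Cd9, 6 rose and 0 fell in EPSCM against ES medium. In EPSCM against 2iLIF 9 rose and 1 fell, and in 2iLIF against ES medium 2 rose and 2 fell. The median log2 difference of the list was 0.63, 0.50 and 0.04 in the 3 comparisons, where all tested genes had 0.09, 0.03 and 0.03. Cd63, a tetraspanin of late endosomes and exosomes, rose in EPSCM to 303 ± 4.13 FPKM, against 77.6 ± 0.634 FPKM in ES medium (1.95 ± 0.04, limma adjusted p = 3.50e-09, n = 3 each), and was at 363 ± 1.22 FPKM in 2iLIF. Tspan9 rose in EPSCM to 27.4 ± 2.89 FPKM, against 9.72 ± 0.926 FPKM in 2iLIF and 6.89 ± 0.280 FPKM in ES medium (1.40 ± 0.09 and 1.84 ± 0.09, adjusted p = 1.13e-06 and 2.08e-07). Tspan7 was at 9.67 ± 0.220 FPKM in EPSCM and 0.289 ± 0.0731 FPKM in 2iLIF (3.05 ± 0.07, adjusted p = 5.36e-09). Cd151, which pairs with laminin-binding integrins, was at 57.4 ± 4.87 FPKM in EPSCM and 31.2 ± 2.37 FPKM in ES medium (0.86 ± 0.08, adjusted p = 9.75e-06), under the limit of 1. Igsf8, an Ig-type partner of CD9, rose in EPSCM to 37.5 ± 4.22 FPKM, against 12.1 ± 1.48 FPKM in 2iLIF (1.55 ± 0.11, adjusted p = 2.03e-06).

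Of 5 tested partners of prominin and genes of membrane protrusions, 3 rose in EPSCM against ES medium and 1 against 2iLIF, and none was called in 2iLIF against ES medium. Cdhr1, a cadherin that binds prominin-1 in photoreceptors, rose in EPSCM to 6.25 ± 0.236 FPKM, against 1.89 ± 0.0687 FPKM in 2iLIF (1.33 ± 0.07, limma adjusted p = 3.78e-07, n = 3 each) and 0.621 ± 0.138 FPKM in ES medium (2.16 ± 0.07, adjusted p = 3.01e-08). Ttyh1 and Ttyh2, membrane proteins of the tweety family, rose in EPSCM to 9.85 ± 1.16 and 20.2 ± 3.16 FPKM, against 3.71 ± 0.437 and 7.31 ± 0.811 FPKM in ES medium (1.20 ± 0.09 and 1.35 ± 0.11, adjusted p = 3.39e-06 and 5.51e-06). Prom2, the other prominin gene, was at most 0.135 FPKM on average in any medium. Igsf8 lies on chromosome 1, and Mmp14 and Cdhr1 on chromosome 14, whose tested genes had a median log2 difference of -0.29 and -0.06 for EPSCM against ES medium, where other autosomes had 0.11, and of -0.05 and 0.08 for EPSCM against 2iLIF, where other autosomes had 0.04. No marker of the 10 lies on either chromosome.

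The enzymes of the panel behaved differently from each other. Alpl encodes tissue-nonspecific alkaline phosphatase, the enzyme behind the histochemical stain of ES cell colonies. It stood at 119.7, 136.5 and 121.0 FPKM in EPSCM, against 131.6, 118.0 and 117.1 FPKM in 2iLIF and 53.1, 45.2 and 47.0 FPKM in ES medium. EPSCM and 2iLIF overlapped and both lay above ES medium. The means were 126 ± 9.34, 122 ± 8.10 and 48.4 ± 4.10 FPKM in EPSCM, 2iLIF and ES medium. On the log2 scale the difference was 1.36 ± 0.08 for EPSCM against ES medium, 0.04 ± 0.08 for EPSCM against 2iLIF and 1.32 ± 0.08 for 2iLIF against ES medium. The related genes Alppl2, Alpi and Akp3 stayed under 1 FPKM. Of 4 tested partners of the enzyme in phosphate and pyrophosphate handling, Phospho1, a phosphatase of bone mineral formation, rose in EPSCM to 15.0 ± 1.60 FPKM, against 5.05 ± 0.375 FPKM in 2iLIF and 5.17 ± 0.496 FPKM in ES medium (1.40 ± 0.09 and 1.37 ± 0.09, limma adjusted p = 1.54e-06 and 1.52e-06, n = 3 each). Ank, a transporter that raises pyrophosphate outside the cell, fell in EPSCM to 4.002 ± 0.112 FPKM, against 9.70 ± 0.476 FPKM in 2iLIF (-1.10 ± 0.06, adjusted p = 3.75e-07).

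Fut4 encodes a fucosyltransferase that can make the Lewis X epitope. It stood at 0.596, 0.359 and 0.520 FPKM in EPSCM, against 0.0239 FPKM in 1 library of 2iLIF, with 0 listed in the other two, and 0.326, 0.363 and 0.210 FPKM in ES medium. The 2iLIF libraries were the lowest, and EPSCM and ES medium overlapped, since EPSCM replicate 2 lay below ES replicate 2. The means were 0.492 ± 0.121 FPKM in EPSCM and 0.299 ± 0.0797 FPKM in ES medium, and Fut4 was not tested. Fut9, the other Lewis X enzyme, was at 1.37 ± 0.283 FPKM in EPSCM, 1.29 ± 0.115 in 2iLIF and 0.658 ± 0.120 in ES medium, and its difference of 0.51 ± 0.10 for EPSCM against ES medium had a limma adjusted p of 0.00101 (n = 3 each) without reaching the limit of 1. Of 21 tested genes of fucose and Lewis X synthesis, 2 rose and 0 fell in EPSCM against ES medium, 1 rose and 0 fell against 2iLIF, and 1 rose and 1 fell in 2iLIF against ES medium. The shares called were 9.52%, 4.76% and 9.52%, below the 19.7%, 16.1% and 14.7% of all tested genes. B4galt2, a galactosyltransferase that builds the chain that is then fucosylated, rose in EPSCM to 10.6 ± 1.40 FPKM, against 2.37 ± 0.262 FPKM in 2iLIF and 3.31 ± 0.526 FPKM in ES medium (1.77 ± 0.12 and 1.43 ± 0.12, adjusted p = 1.45e-06 and 5.08e-06). Fuca2, a fucosidase that removes fucose, rose in EPSCM to 13.7 ± 1.92 FPKM, against 3.38 ± 0.398 FPKM in ES medium (1.75 ± 0.12, adjusted p = 1.48e-06).

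**Figure D3:**
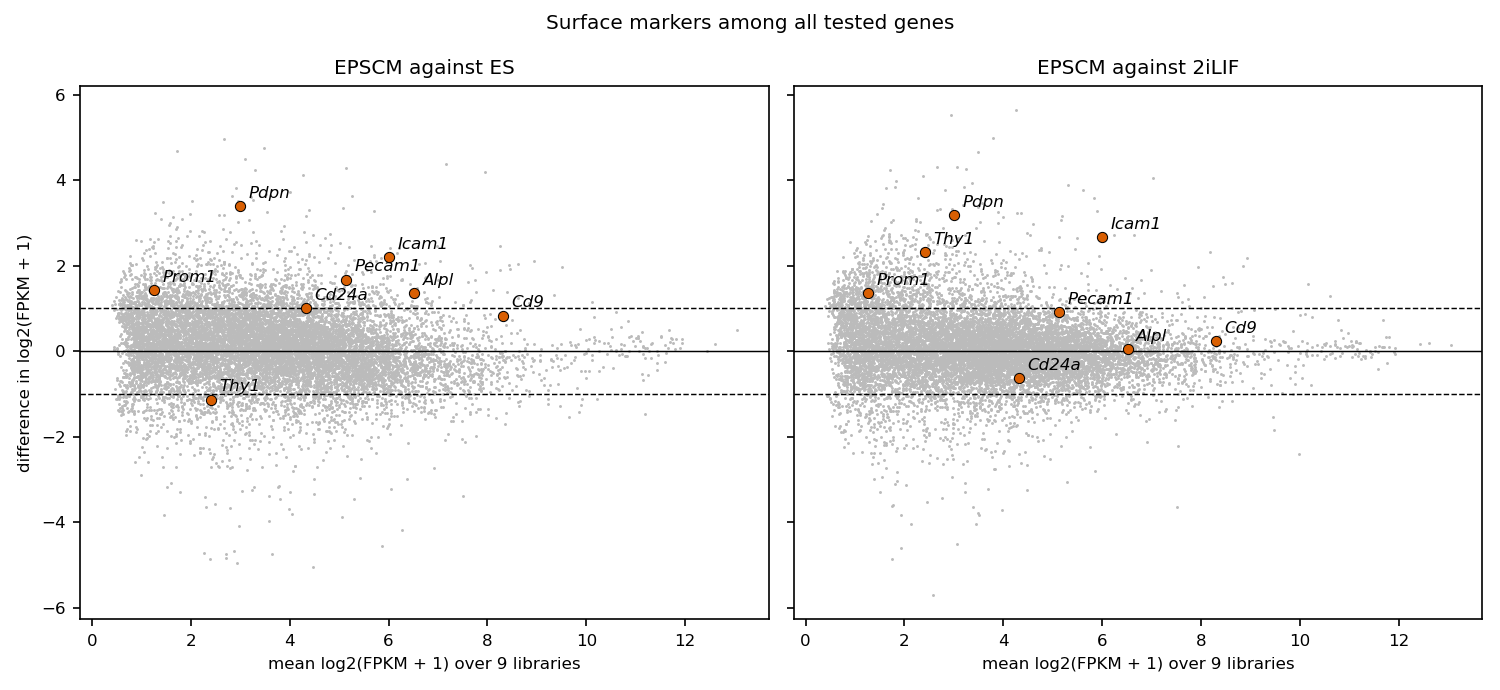
Log2(FPKM + 1) difference (y axis) against mean level (x axis) for all 12330 tested genes in grey and the 8 tested markers in orange, for EPSCM against ES and EPSCM against 2iLIF. Cd9 lies at the high end of the levels with a difference of 0.83 against ES medium, and Pdpn lies highest of the markers in both panels, at 3.40 and 3.18.

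Thy1 and Cd24a are held by GPI anchors, and so is alkaline phosphatase, and a list of 23 tested GPI-anchored proteins beside them gave 8 that rose and 2 that fell in EPSCM against ES medium. Against 2iLIF 3 rose and 5 fell, and in 2iLIF against ES medium 5 rose and 2 fell. Ly6a, which encodes the stem cell antigen Sca-1 of blood, rose in EPSCM to 21.6 ± 2.13 FPKM, against 2.42 ± 0.110 FPKM in ES medium (2.72 ± 0.09, limma adjusted p = 3.01e-08, n = 3 each), and fell against the 143 ± 12.9 FPKM of 2iLIF (-2.67 ± 0.09, adjusted p = 2.89e-08). Its order of media, 2iLIF, EPSCM, ES medium, is the reverse of that of Thy1. Prnp, the prion protein gene, was at 13.8 ± 0.568 FPKM in EPSCM, 3.51 ± 0.431 in 2iLIF and 3.70 ± 0.125 in ES medium, with differences of 1.72 ± 0.08 against 2iLIF and 1.65 ± 0.08 against ES medium (adjusted p = 1.28e-07 and 1.61e-07). Gpc3, a heparan sulfate proteoglycan, rose to 40.8 ± 3.07 FPKM in EPSCM, against 9.67 ± 0.635 FPKM in 2iLIF and 14.2 ± 1.11 FPKM in ES medium (1.97 ± 0.08 and 1.46 ± 0.08, adjusted p = 8.46e-08 and 4.33e-07). Bst2 (tetherin), an antiviral protein, fell in EPSCM to 26.8 ± 3.40 FPKM, against 65.4 ± 10.7 FPKM in ES medium (-1.25 ± 0.14, adjusted p = 4.33e-05). Tdgf1, which encodes the Nodal co-receptor Cripto, was at 547 ± 59.9 FPKM in EPSCM, 286 ± 26.5 in 2iLIF and 572 ± 51.9 in ES medium and was not called in any comparison, although its difference for 2iLIF against ES medium, -0.99 ± 0.11, crossed the limit when libraries were scaled to the same median ratio or without 2iLIF replicate 2, 2iLIF replicate 3 or ES replicate 1. Without EPSCM replicate 2 its difference for EPSCM against 2iLIF, 0.93 ± 0.11, crossed it too.

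Of 18 other tested surface antigens of ES cells, 4 rose and 0 fell in EPSCM against ES medium, 7 rose and 1 fell in EPSCM against 2iLIF, and 3 rose and 4 fell in 2iLIF against ES medium. Bsg, the Ig-type protein CD147, was at 818 ± 32.6 FPKM in EPSCM, 244 ± 5.44 in 2iLIF and 214 ± 13.4 in ES medium, with a difference of 1.93 ± 0.06 against ES medium (limma adjusted p = 2.41e-08, n = 3 each). Cd47, which signals to phagocytes, rose in EPSCM to 6.99 ± 0.681 FPKM, against 1.13 ± 0.287 FPKM in ES medium (1.91 ± 0.12, adjusted p = 8.00e-07). Kit, the receptor of stem cell factor, rose to 62.0 ± 0.321 FPKM in EPSCM, against 23.8 ± 1.03 FPKM in ES medium (1.35 ± 0.05, adjusted p = 4.66e-08), and was at 74.2 ± 0.871 FPKM in 2iLIF. Epcam, an epithelial adhesion molecule, was at 22.7 ± 0.878 FPKM in EPSCM and 44.5 ± 2.26 FPKM in ES medium (-0.94 ± 0.07, adjusted p = 2.74e-06), under the limit of 1 except with libraries scaled to the same median ratio, and it rose in EPSCM against the 9.003 ± 0.756 FPKM of 2iLIF (1.25 ± 0.07, adjusted p = 5.35e-07). Podxl, a sialomucin, was at 9.84 ± 0.109 FPKM in EPSCM, 1.23 ± 0.112 in 2iLIF and 7.75 ± 0.261 in ES medium.

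Over the union of the companion lists, 128 genes were tested, of which 28 rose and 7 fell in EPSCM against ES medium, or 27.3% called where 19.7% of all tested genes were. With quantile normalization 24 rose and 12 fell. In EPSCM against 2iLIF 24 rose and 14 fell, and in 2iLIF against ES medium 20 rose and 14 fell, or 29.7% and 26.6% called where all tested genes had 16.1% and 14.7%. In EPSCM against ES medium the share called was 9.52% for fucose and Lewis X synthesis and 11.1% for hyaluronan genes. The other lists lay above 19.7%, up to 60% for the 5 prominin partners and protrusion genes.

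**Figure D4:**
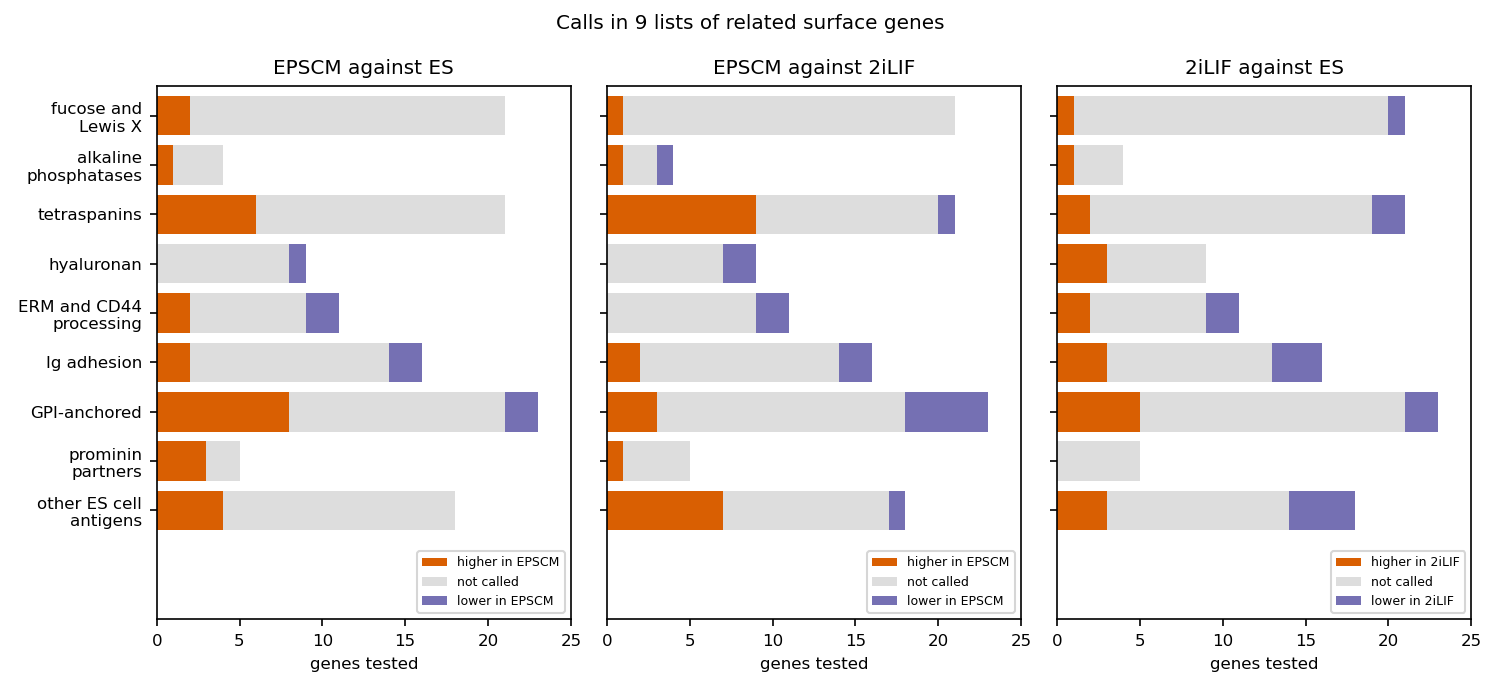
Number of tested genes called higher, not called and called lower (stacked along the x axis) in each of 9 companion lists (rows), with the markers themselves left out, in 3 panels, EPSCM against either other medium and 2iLIF against ES. Tetraspanins and their partners have 9 calls higher and 1 lower in EPSCM against 2iLIF, and GPI-anchored proteins have 3 higher and 5 lower.

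Genes whose profile over the 9 libraries was most like that of a marker were taken for the 4 markers with the widest range of medium means, by the root mean square (RMS) difference of centred log2(FPKM + 1) values. For Thy1 the nearest was Cntfr, the receptor of ciliary neurotrophic factor, at an RMS difference of 0.0889, with 5.72 ± 0.739 FPKM in EPSCM, 0.400 ± 0.0586 in 2iLIF and 12.6 ± 1.11 in ES medium. Fgf15, a fibroblast growth factor gene, and Eras, a Ras gene of ES cells, followed at 0.109 and 0.194. For Icam1 the nearest were Espn at 0.06503, Ltbp3 at 0.0774 and Col4a1 at 0.0940, and Col4a1, a basement membrane collagen, stood at 27.1 ± 1.09 FPKM in EPSCM, 3.31 ± 0.184 in 2iLIF and 5.79 ± 0.224 in ES medium. For Pdpn they were Slc25a31, Xlr3a and Dppa3 at 0.253, 0.269 and 0.272, a looser likeness than that of the other markers. Dppa3, a maternal-effect gene, was at 27.9 ± 4.15 FPKM in EPSCM, 3.71 ± 0.402 in 2iLIF and 2.51 ± 0.0342 in ES medium. For Pecam1 they were Ltk, Tacc1 and Fbxo27 at 0.0381, 0.0547 and 0.0582. These values share libraries and describe likeness of pattern only.

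Within each medium the library numbered 16, 18 or 19 lay on the same side of the mean of the other two for 8 markers. Pecam1, Icam1, Thy1, Cd9 and Alpl were higher in it in all 3 media, by 0.02 to 0.26 on the log2(FPKM + 1) scale. Cd24a was lower in it in all 3 media, at -0.63 to -0.44, Pdpn at -0.42 to -0.12 and Prom1 at -0.37 to -0.02. For Thy1 in 2iLIF and Prom1 in 2iLIF and ES medium that library lay between the other two. Each medium holds 1 such library, and without those 3 libraries the same numbers of markers were called. The difference for EPSCM against ES medium was then 1.68 for Pecam1, 2.16 for Icam1, 3.50 for Pdpn, 1.03 for Cd24a, 1.52 for Prom1, 1.37 for Alpl and -1.16 for Thy1.

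**Figure D5:**
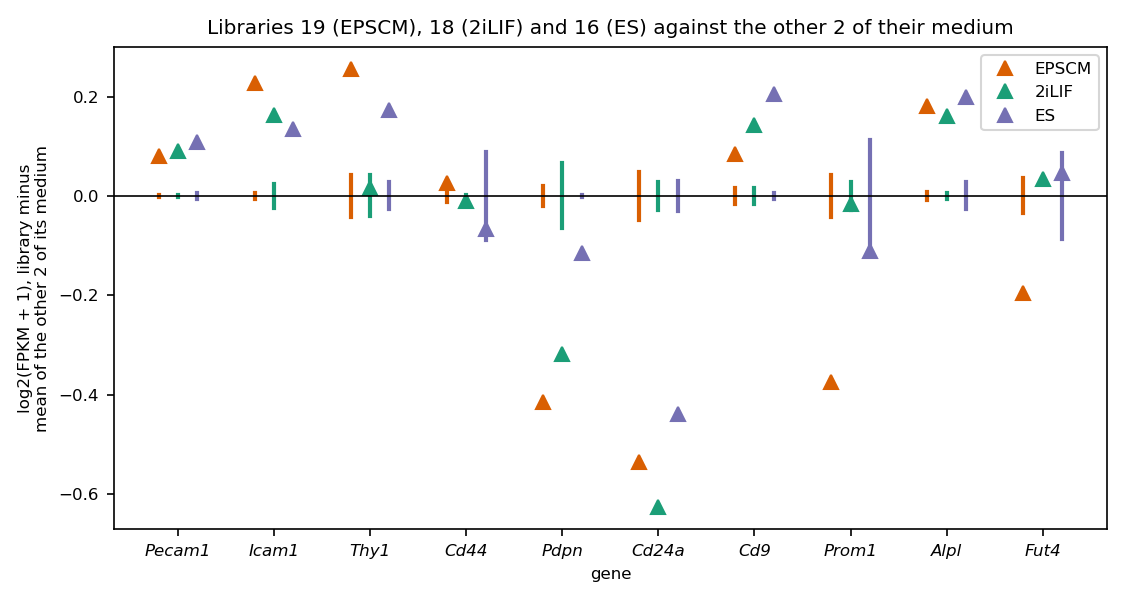
Log2(FPKM + 1) of the library numbered 16, 18 or 19 minus the mean of the other 2 libraries of its medium (triangles, y axis) for each marker (x axis) and medium, with vertical bars that span the gap between those other 2. Cd24a is the lowest in all 3 media, between -0.63 and -0.44.

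Several markers are also used for other cell types, and in bulk RNA a change in the number of cells of a type and a change in RNA per cell cannot be told apart. The fibroblast list of 7 genes summed to 5.48 to 6.79 FPKM in EPSCM, 3.39 to 3.76 in 2iLIF and 1.53 to 1.97 in ES medium. Only 1 gene, Pdgfrb, was above 1 FPKM in each medium, and it made up most of the sum. Pdgfrb was at 5.74 ± 0.653 FPKM in EPSCM, 3.28 ± 0.267 in 2iLIF and 1.29 ± 0.220 in ES medium. The collagen gene Col1a1 was highest in ES medium, at 0.276 ± 0.0412, 0.168 ± 0.0434 and 0.383 ± 0.0155 FPKM in the same order. The primitive endoderm list of 7 summed to 9.77 to 10.5 FPKM in EPSCM, 2.99 to 3.38 in 2iLIF and 5.76 to 6.45 in ES medium, and its genes differed in direction. Gata6 was at 3.18 ± 0.245 FPKM in EPSCM, 0.258 ± 0.0474 in 2iLIF and 0.675 ± 0.0520 in ES medium, while Sox7 was at 0.0315 ± 0.0315 FPKM in EPSCM, 0.0422 ± 0.0146 in 2iLIF and 2.79 ± 0.116 in ES medium. Both were tested through their libraries of 1 medium alone. The trophoblast list of 8 summed to 46.4 to 53.7 FPKM in EPSCM, 28.4 to 31.7 in 2iLIF and 23.0 to 26.5 in ES medium. Tfap2c made up most of it, and the genes of the list differed in direction. Tfap2c, Eomes, Ascl2, Gata3 and Hand1 were highest in EPSCM. Eomes was at 4.40 ± 0.467 FPKM in EPSCM, 3.30 ± 0.103 in 2iLIF and 1.03 ± 0.0826 in ES medium. Krt7 and Cdx2 were highest in 2iLIF, and Elf5 averaged at most 0.0310 FPKM in any medium. Cdx2 was at 0.0411 ± 0.0229 FPKM in EPSCM, 2.85 ± 0.118 in 2iLIF and 0.109 ± 0.0309 in ES medium. The neural list of 8 summed to 207 to 240.0 FPKM, 172 to 212 and 124 to 140.1 in the same order. In it Stmn2 was at 199 ± 16.9 FPKM in EPSCM, 165 ± 20.2 in 2iLIF and 62.1 ± 5.90 in ES medium, while Tubb3 was at 16.2 ± 1.501, 19.6 ± 1.82 and 62.9 ± 3.94 FPKM. The mesoderm list of 6 summed to 1.55 to 2.25, 13.4 to 15.4 and 1.60 to 1.89, most of the 2iLIF sum being T, and its genes differed in direction. T was at 0.412 ± 0.118 FPKM in EPSCM, 12.7 ± 0.854 in 2iLIF and 0.190 ± 0.0187 in ES medium. Mesp1 was lowest in 2iLIF, at 0.300 ± 0.0803, 0.0665 ± 0.0605 and 0.401 ± 0.0244 FPKM in the same order. The blood list of 7 summed to 33.3 to 37.0 FPKM in EPSCM, 84.2 to 89.0 in 2iLIF and 81.4 to 91.1 in ES medium, nearly all of it Laptm5, and Ptprc, which defines blood cells, was at most 0.00972 FPKM. The part of these genes in the marker levels was not tested.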

How the data were processed

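Polyadenylated RNA of 9 libraries was measured, 3 per medium, grouped by the medium named in the labels. FPKM values per gene were made by the authors with STAR and Cuffnorm on mm9, per the submitters' processing notes. The sources used here give no versions, annotation, use of strand or scaling between libraries. Because an FPKM depends on the library total, very abundant genes can move the rest.

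The deposited FPKM values were taken as log2(FPKM + 1), keeping the 12330 of 24819 genes that reached 1 FPKM in 3 or more libraries. limma 3.58.1 in R 4.3.3 fitted 1 model over all libraries, with a trend in the variance prior and Benjamini-Hochberg adjustment per comparison. Members, lists and named genes were chosen with earlier results of these data known. Named genes were all 10 markers, up to 4 called genes per companion list and comparison with the largest difference, set key genes, and 3 nearest profiles for 4 markers; not every one is printed. No p is printed for a marker. The adjusted p-values printed for other named genes are subject to the same choice, so they describe those genes and are not independent support. On simulated data all 50 genes changed by 2 were called and 21 of 50 changed by 1, in EPSCM against ES medium, with 12330 genes simulated. A change of 1 lies at the limit for a call and a change of 2 well past it. These numbers therefore describe the rule and do not test the calls made here. Alternatives changed the pseudocount, filter, scaling, variance prior, covariate and libraries. Promoters came from RefSeq on GRCm38.p6. Depth was read from FPKM steps with GENCODE lengths of another annotation.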

Additional observations from a re-analysis of the deposited data

How the results depend on the processing

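Of 597 alternative values of the markers, 581 kept their direction and side of the limit, or, for genes not tested, moved by less than the spread between libraries. The exceptions were 6 lost calls, all of Cd24a in EPSCM against ES medium (0.86 to 0.99), 1 gained call, Cd9 with quantile normalization (1.02), 7 shifted values of Cd44 and Fut4, which were not tested, and 2 changes of sign of Alpl in EPSCM against 2iLIF, where it was not called. With quantile normalization the difference of Cd44 for EPSCM against 2iLIF was -0.03, in place of 0.02. Prom1 gave no value in 3 comparisons with a mean of at least 5 FPKM. Part of the 581 was fixed in advance. The filters, the variance prior, the covariate and leaving out a library of the third medium cannot move a difference. They could only change its adjusted p or leave the gene out, so the 581 of 597 overstates how much was tested. No called difference of a marker or named gene changed sign, but differences near 0 that were not called did. With libraries scaled to the same median ratio, Alpl was -0.0099 in EPSCM against 2iLIF, Ezr -0.089 in EPSCM against ES medium and -0.020 against 2iLIF, and Hmmr -0.016 against ES medium. With quantile normalization, EPSCM against ES medium gave -0.047 for Ank, -0.020 for Ly6c1, 0.067 for Nanog and 0.096 for Tdgf1, EPSCM against 2iLIF gave -0.22 for Fut9, and 2iLIF against ES medium gave 0.13 for Ezr and -0.067 for Slc35c1. With libraries scaled to the same sum, 2iLIF against ES medium gave 0.034 for Ezr and 0.018 for Phospho1. Without the libraries numbered 16, 18 and 19, Fut9 was -0.0041 in EPSCM against 2iLIF. Leaving out each library in turn, EPSCM against ES medium ranged from -0.034 to 0.066 for Ezr, -0.025 to 0.18 for Hmmr, -0.011 to 0.18 for Ly6c1 and -0.14 to 0.029 for Tdgf1. EPSCM against 2iLIF ranged from -0.020 to 0.094 for Alpl, -0.096 to 0.026 for Adam10, -0.014 to 0.087 for Ezr and -0.038 to 0.13 for Fut9. In 2iLIF against ES medium the ranges were -0.077 to 0.036 for Ezr, -0.090 to 0.026 for Phospho1 and -0.0049 to 0.092 for Slc35c1.

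The genes called were 2423, 1979 and 1817 in EPSCM against ES medium, EPSCM against 2iLIF and 2iLIF against ES medium. With a mean of at least 5 FPKM, which tests fewer genes, they were 1532, 1025 and 1055. With a pseudocount of 0.1 the counts rose from 2423, 1979 and 1817 to 3401, 2835 and 2738. In EPSCM against ES medium the difference of Prom1, a low gene, then went from 1.43 to 2.21. That of Cd9, the most abundant marker, stayed at 0.83. The part of low genes in the rise of the counts was not tested. In EPSCM against ES medium 1440 genes were called higher and 983 lower, 1152 and 1143 with quantile normalization, and 1237 and 1157 with the median ratio. Leaving out each library in turn gave 2405 to 2492, 1975 to 2017 and 1808 to 1895 genes, 6 to 7, 4 and 3 markers, and 34 to 38, 37 to 40 and 33 to 36 companion genes. The labels name no pairing of libraries between media, so no paired analysis was run. With the libraries numbered 16, 18 and 19 as a covariate, 2429, 1982 and 1821 genes and 7, 4 and 3 markers were called. Depth limits Cd44 in each medium and Fut4 in 2iLIF, where levels came from few fragments.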
